A study of Mus musculus with 10 samples.

Results

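Lipofibroblasts are interstitial fibroblasts of the growing alveolus that hold neutral lipid in droplets. The genes described here are 10 genes of fat uptake, storage and release, chosen by name: Cd36, Lpl, Fabp4 and Fabp5 (uptake and transport of fatty acids), Pparg (the regulator), Plin2 and Plin1 (droplet coat), Pnpla2 and Lipe (lipases of the droplet) and Adipoq (the hormone adiponectin). All 10 were found among the 54532 genes measured. The lungs came from WT C57/BL6 pups, male or female, which had surgery at P7 and were examined at P14. The IncPBF group (increased pulmonary blood flow, 5 lungs) had fistula surgery, in which a puncture from the abdominal aorta into the inferior vena cava opens a shunt. The sham group (Sham operated, 5 lungs) had the same operation without the puncture. Whole lung tissue was profiled by bulk RNA-sequencing, and the comparison asks how a shunt in the first weeks of life bears on the alveolus.

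Lipoproteins in the blood carry fatty acids to the lung. LPL splits their triglycerides at the capillary wall, CD36 carries the released fatty acids into the cell, and FABP4 and FABP5 bind them in the cytosol. Inside the cell they are stored as triglyceride in droplets whose surface is covered by perilipins, with PLIN2 found in most cell types and PLIN1 mainly in adipocytes. The lipase ATGL, encoded by Pnpla2, and hormone-sensitive lipase, encoded by Lipe, release the fatty acids again. PPARγ, encoded by Pparg, is the nuclear receptor that switches on many of these genes in fat cells. Lipofibroblasts are known for passing lipid to alveolar type 2 cells for surfactant, and droplets are also found in alveolar macrophages.

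Values are FPKM, in which a gene's sequenced fragments are divided by its length in kilobases and by a library size. The library size implied by the deposited values was not the count of fragments on genes. It was below that count in sham lungs 1, 2 and 5 and above it in all other lungs. Fragments on genes numbered 18171494 to 19400575 per sham lung and 16103423 to 20318525 per IncPBF lung. A single fragment on 1 kb was worth 0.0482 to 0.0580 FPKM, so Plin1 and Adipoq, with 33 fragments or fewer in every lung, had little precision. Counting limits cover counting error only. Litter and day of surgery were not used here, and p-values measure the spread between these lungs. The lungs differed in sex-linked expression along with the groups. Xist, the RNA of the inactive X chromosome, was at 52.4 to 66.5 FPKM in IncPBF lungs 2 to 5, at 0.0144 in IncPBF lung 1 and at 0.0770 or less in the sham lungs. Ddx3y, on the Y chromosome, was at 18.6 FPKM in IncPBF lung 1, at 21.9 to 24.6 in the sham lungs and at 0.00926 or less in IncPBF lungs 2 to 5. Results are therefore also given with log2 Xist FPKM as a covariate and for IncPBF lung 1 alone against the sham lungs. With that covariate the group estimate rests almost wholly on IncPBF lung 1, the only IncPBF lung with Xist near 0. The 2 fits are therefore not independent of each other, and calls held or lost in them bear on that lung.

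Promoter sequence is shown for the 3 genes of fat uptake and release that fell and have an entry, Cd36, Pnpla2 and Lipe, and for Plin2, which did not pass the test, so that the letters around their start sites can be compared. Each run holds 250 bases before to 50 after a start annotated by RefSeq on GRCm38.p6, written 5′ to 3′ on the gene's strand. Capitals mark matches on either strand to 4 short motifs. The core read by nuclear receptors is AGGTCA. The TATA box was searched as TATAAA. The CCAAT box was searched by the letters of its name. The GC box was searched as GGGCGG.
Cd36, chr5:17835847-17836146, minus strand: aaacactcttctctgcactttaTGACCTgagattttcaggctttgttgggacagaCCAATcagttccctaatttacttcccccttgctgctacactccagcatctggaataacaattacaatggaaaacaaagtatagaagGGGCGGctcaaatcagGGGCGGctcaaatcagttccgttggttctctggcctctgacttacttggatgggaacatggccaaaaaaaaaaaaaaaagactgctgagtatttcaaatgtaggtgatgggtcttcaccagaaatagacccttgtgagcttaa
Pnpla2, chr7:141454938-141455237, plus strand: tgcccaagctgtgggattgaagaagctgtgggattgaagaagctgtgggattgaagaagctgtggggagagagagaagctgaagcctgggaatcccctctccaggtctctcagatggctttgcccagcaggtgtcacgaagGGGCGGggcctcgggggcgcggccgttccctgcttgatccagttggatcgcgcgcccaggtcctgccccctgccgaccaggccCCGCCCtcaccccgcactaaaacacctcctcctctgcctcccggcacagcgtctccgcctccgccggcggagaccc
Lipe, chr7:25395938-25396237, minus strand: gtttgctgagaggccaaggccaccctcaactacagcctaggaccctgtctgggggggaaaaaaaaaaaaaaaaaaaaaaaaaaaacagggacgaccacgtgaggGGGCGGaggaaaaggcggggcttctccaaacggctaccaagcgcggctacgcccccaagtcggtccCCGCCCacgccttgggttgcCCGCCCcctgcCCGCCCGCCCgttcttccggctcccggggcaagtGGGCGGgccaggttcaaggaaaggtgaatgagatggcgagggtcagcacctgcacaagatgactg
Plin2, chr4:86670010-86670309, minus strand: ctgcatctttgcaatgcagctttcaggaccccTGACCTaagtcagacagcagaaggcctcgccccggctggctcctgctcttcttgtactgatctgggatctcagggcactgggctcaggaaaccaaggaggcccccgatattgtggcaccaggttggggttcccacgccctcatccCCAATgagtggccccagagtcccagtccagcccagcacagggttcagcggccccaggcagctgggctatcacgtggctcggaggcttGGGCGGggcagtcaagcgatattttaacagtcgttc

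Of the 10 genes, 7 had such an entry, with 10 windows in all. AGGTCA lay in the windows of Cd36 (first base at -228, counted from 0 at the start) and Plin2 (at -218), and in 2 of the 3 windows of Pparg, at -28 and -9. It occurred in 16.3% of all 32817 windows. The core repeated after 1 base, the arrangement read by PPARγ with a retinoid X receptor, was in none of the 10 windows and in 0.0396% of all. GC boxes stood in the windows shown of all 4 genes, namely 2 in Cd36, 2 in Pnpla2, 6 in Lipe (of which those at -49 and -45 overlap) and 1 in Plin2, against 35.6% of all windows with at least 1. The CCAAT box was in the windows of Cd36 and Plin2 and in 37.4% of all, and the TATA box was in 1 window of Pparg and in 13.6% of all. The other Lipe window, at a start further inside the gene, held no match. The windows shown of Cd36 and Lipe also lie inside their gene models, downstream of the upstream boundary. Those of Pnpla2 and Plin2 span that boundary. No letters searched were shared by the 3 genes that fell and missing from Plin2.

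IncPBF lungs had lower levels of 4 of the 10 genes, 2 of uptake (Cd36 and Lpl) and the 2 lipases of the droplet (Pnpla2 and Lipe). Cd36, Lpl, Pnpla2 and Lipe were at 0.516 to 0.618 times the sham mean and their groups did not overlap. Fabp5 was 1.23 times the sham mean. Plin2, Pparg and Fabp4 did not pass the test, and Plin1 and Adipoq were too low for it (mean below 0.5 FPKM). Over all 15388 genes tested by limma, 16.2% were lower and 16.1% higher at an adjusted p under 0.05. Either way this makes 32.3%. Groups did not overlap for 23.2% of all genes, 11.2% lower and 12.0% higher, and among the 8 genes tested for 4, all lower. The median log2 fold change of the 8 genes was -0.39, against 0.014 over all genes tested. In bulk lung, fewer cells of a type and less RNA per cell cannot be told apart.

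**Figure D1:**
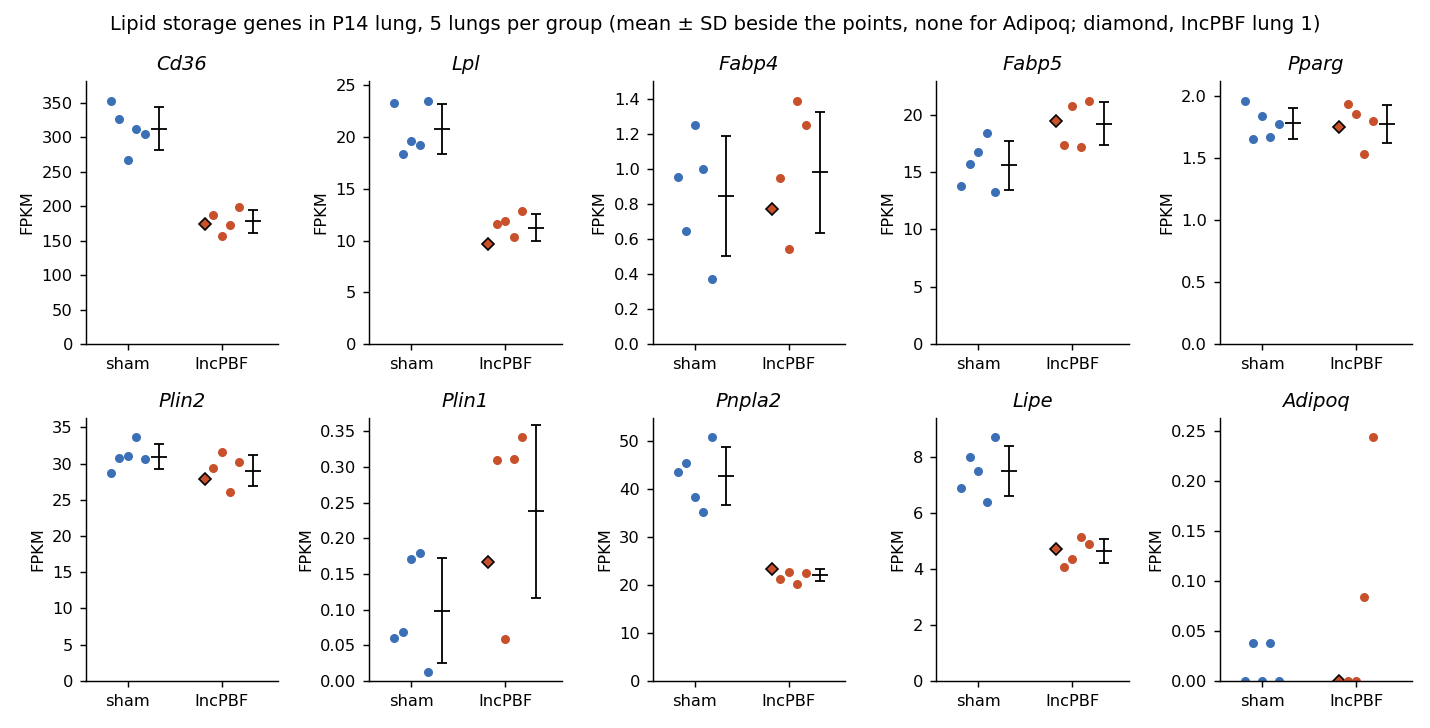
FPKM (vertical axes, from 0, a scale for each gene) of the 10 genes in the 5 sham (blue) and 5 IncPBF (orange) lungs, 1 point per lung, with mean ± SD beside the points except for Adipoq; the diamond is IncPBF lung 1. The points of Cd36, Lpl, Pnpla2 and Lipe separate by group, those of the other 6 overlap, and Adipoq is at 0 in 6 lungs.

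Cd36 (ENSMUSG00000002944, chromosome 5 of GRCm38, 17781690 to 17888801, minus strand), the fatty acid transporter, had the highest level of the 10 genes. Its FPKM in IncPBF lungs 1 to 5 were 174, 187, 157, 172 and 199.7, and in sham lungs 1 to 5 they were 354, 326, 267.5, 312 and 305. Every IncPBF lung was below every sham lung, and the lowest sham lung was sham lung 3. The means were 178 ± 16.1 and 313 ± 31.5 FPKM (SD, n = 5 each). The log2 fold change was -0.81 (SE 0.09, limma adjusted p = 7.99e-05), and the exact permutation test, two-sided, gave p = 0.00794, the smallest that 5 against 5 lungs allow. It was -0.82 with Xist as covariate (SE 0.16, adjusted p = 0.0197). IncPBF lung 1 alone was at 0.556 times the sham mean, below all sham lungs, with an adjusted p of 0.0867.

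Lpl (ENSMUSG00000015568, chromosome 8, 68880491 to 68907448, plus strand) encodes the lipase that frees fatty acids from circulating lipoproteins. In IncPBF lungs 1 to 5 its FPKM were 9.64, 11.6, 11.9, 10.3 and 12.9, and in the sham lungs 23.3, 18.4, 19.6, 19.2 and 23.5. All IncPBF lungs were lower than all sham lungs, and IncPBF lung 1 had the lowest value. Lpl fell from 20.8 ± 2.42 to 11.3 ± 1.28 FPKM (SD, n = 5), a log2 fold change of -0.88 (SE 0.10, limma adjusted p = 8.67e-05). The change was -1.08 (SE 0.15, adjusted p = 0.00576) with Xist as covariate. It was -1.09 (SE 0.16, adjusted p = 0.0347) for IncPBF lung 1 alone, where Lpl was the 1 gene of the 10 that still passed.

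The cytosolic carriers did not move with the transporter and the lipase. Fabp5 (ENSMUSG00000027533, chromosome 3, 10012548 to 10016607, plus strand) was at 19.5, 17.4, 20.7, 17.2 and 21.2 FPKM in IncPBF lungs 1 to 5 and at 13.8, 15.7, 16.8, 18.5 and 13.3 in the sham lungs. The groups overlapped, since sham lung 4 was above IncPBF lungs 2 and 4. Fabp5 rose from 15.6 ± 2.13 to 19.2 ± 1.88 FPKM (SD, n = 5), a log2 fold change of 0.30 (SE 0.10, 95% interval 0.09 to 0.52, limma adjusted p = 0.0354, with 16.1% of all genes called higher). This call was lost without IncPBF lung 1 (adjusted p = 0.0666), 3 (0.079) or 5 (0.0785), without sham lung 1 (0.082), 2 (0.0585) or 5 (0.0794), and with Xist as covariate (0.352). Processed pseudogenes of Fabp5 exist in the mouse genome, and how fragments shared with them were counted is not given in the sources used here.

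Fabp4 (ENSMUSG00000062515, chromosome 3, 10204088 to 10208576, minus strand), the carrier typical of fat cells and of capillary endothelium, was low. Its FPKM were 0.772, 0.951, 0.543, 1.39 and 1.26 in IncPBF lungs 1 to 5 and 0.956, 0.650, 1.26, 1.00 and 0.371 in the sham lungs, from 29 to 117 fragments per lung. The spread within each group was wider than the distance between the group means, 0.983 ± 0.347 and 0.847 ± 0.342 FPKM (SD, n = 5). The log2 fold change was 0.22 (SE 0.31, limma adjusted p = 0.629), and its 95% interval of -0.47 to 0.91 holds changes in either direction. It was -0.07 with Xist as covariate and -0.03 for IncPBF lung 1 alone.

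Pparg (ENSMUSG00000000440, chromosome 6, 115360951 to 115490399, plus strand) had nearly the same level in both groups. IncPBF lungs 1 to 5 were at 1.75, 1.93, 1.85, 1.53 and 1.79 FPKM and the sham lungs at 1.96, 1.65, 1.84, 1.67 and 1.77, with 78 to 110 fragments per lung. The highest value was in a sham lung and the lowest in an IncPBF lung, and the groups overlapped throughout. Means were 1.77 ± 0.151 and 1.78 ± 0.128 FPKM (SD, n = 5). The log2 fold change was -0.01 (SE 0.09, limma adjusted p = 0.972), with a 95% interval of -0.21 to 0.20, and it was 0.03 with an equal total per lung and 0.08 by limma-voom. An antisense gene overlaps Pparg, Gm44079, with a mean of 0.00978 FPKM. The RNA of a receptor does not measure its activity.

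Plin2 (ENSMUSG00000028494, chromosome 4, 86648386 to 86670060, minus strand), the droplet coat protein by which lipofibroblasts are often recognised, did not pass the test. Its FPKM were 27.9, 29.3, 31.6, 26.0 and 30.3 in IncPBF lungs 1 to 5 and 28.7, 30.8, 31.1, 33.7 and 30.6 in the sham lungs. The groups overlapped, although IncPBF lung 1 was below all sham lungs. The means were 29.0 ± 2.13 and 31.0 ± 1.77 FPKM (SD, n = 5), and the log2 fold change was -0.09 (SE 0.06, limma adjusted p = 0.268; exact permutation p = 0.167). Its 95% interval of -0.23 to 0.04 does not reach the changes of Cd36, Lpl, Pnpla2 or Lipe.

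Plin1 (ENSMUSG00000030546, chromosome 7, 79720218 to 79732903, minus strand), the coat protein of fat cell droplets, was low. It had 15, 27, 5, 25 and 33 fragments in IncPBF lungs 1 to 5 and 5, 6, 15, 16 and 1 in the sham lungs. IncPBF lungs 2, 4 and 5 stood above the highest sham lung, and IncPBF lungs 1 and 3 lay within the sham range. Means were 0.238 ± 0.121 and 0.0985 ± 0.0738 FPKM (SD, n = 5; exact permutation p = 0.0952, two-sided). No difference was detectable at this depth.

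Pnpla2 (ENSMUSG00000025509, chromosome 7, 141455198 to 141460743, plus strand), which encodes ATGL, the lipase that takes the first fatty acid off stored triglyceride, showed the largest fall of the 8 genes tested. It was at 23.3, 21.3, 22.7, 20.2 and 22.4 FPKM in IncPBF lungs 1 to 5 and at 43.4, 45.4, 38.4, 35.1 and 50.7 in the sham lungs. The IncPBF lungs lay close together, far below the lowest sham lung. Pnpla2 fell from 42.6 ± 6.09 to 21.99 ± 1.22 FPKM (SD, n = 5), a log2 fold change of -0.94 (SE 0.09, limma adjusted p = 4.63e-05). Lpl had the larger fall with Xist as covariate, where Pnpla2 was at -0.84 (SE 0.16, adjusted p = 0.019), and for IncPBF lung 1 alone. In that lung Pnpla2 was at 0.547 times the sham mean (adjusted p = 0.101).

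Lipe (ENSMUSG00000003123, chromosome 7, 25379527 to 25398710, minus strand), the next lipase of the pathway, fell less. Its FPKM in IncPBF lungs 1 to 5 were 4.71, 4.05, 4.34, 5.14 and 4.89, and in the sham lungs 6.87, 7.98, 7.48, 6.40 and 8.69. Again the groups did not overlap. The fall was from 7.49 ± 0.903 to 4.63 ± 0.434 FPKM (SD, n = 5), a log2 fold change of -0.68 (SE 0.09, limma adjusted p = 0.000352). The size was similar with Xist as covariate, -0.64 (SE 0.17), but the call was lost (adjusted p = 0.0566). For IncPBF lung 1 alone it was -0.65 (SE 0.17, adjusted p = 0.138). The antisense gene 4732471J01Rik overlaps Lipe and had a mean of 0.201 FPKM; fragments of the 2 cannot be told apart without strand.

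Adipoq (ENSMUSG00000022878, chromosome 16, 23146536 to 23158028, plus strand), the fat cell hormone, was at 0, 0, 0, 2 and 7 fragments in IncPBF lungs 1 to 5 and at 0, 1, 0, 1 and 0 in the sham lungs. Above the floor of 3 fragments stood 1 lung, IncPBF lung 5. No change can be read at this depth (exact permutation p = 0.444, two-sided).

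**Figure D2:**
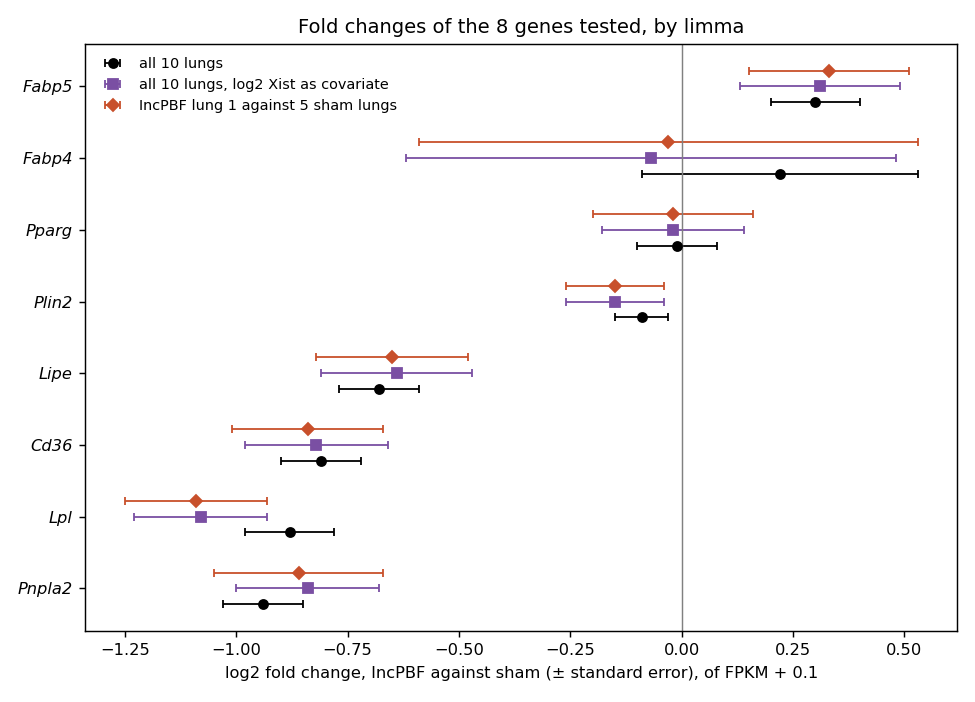
Log2 fold change of FPKM + 0.1 (horizontal axis), IncPBF against sham, for the 8 genes tested; points are limma estimates from all 10 lungs (black), with log2 Xist FPKM as covariate (purple) and for IncPBF lung 1 against the 5 sham lungs (orange), and bars are ± 1 SE. The estimates of Cd36, Lpl, Pnpla2 and Lipe stay between -1.09 and -0.64 in all 3 analyses, with wider bars in the last 2. Both of the last 2 rest almost wholly on IncPBF lung 1.

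Levels were compared between genes per kilobase. The order in the sham lungs was Cd36, Pnpla2, Plin2, Lpl, Fabp5, Lipe, Pparg, Fabp4, Plin1 and Adipoq. In the IncPBF lungs Plin2 (29.0 FPKM) stood above Pnpla2 (21.99) and Fabp5 (19.2) above Lpl (11.3), which is the reverse of the sham order on the deposited lengths. Neighbours whose values overlapped were Lpl and Fabp5 and also Plin1 and Adipoq in the sham lungs, and Pnpla2 and Fabp5 and also Plin1 and Adipoq in the IncPBF lungs. The other neighbours in each order did not overlap. These levels depend on the gene length the authors used. It was 5.01 times the longest coding transcript for Fabp4, 3.61 times for Fabp5 and 2.55 times for Lpl, but 1.06 times for Cd36. Per kilobase of that transcript, Fabp5 was at 69.4 FPKM in the IncPBF and 56.4 in the sham lungs, Plin2 at 54.0 and 57.6, Lpl at 28.7 and 53.0, Pnpla2 at 25.3 and 49.0, and Cd36 at 188 and 331. On this scale neither reversal was present, since Plin2 stood above Pnpla2 and Fabp5 above Lpl in both groups. Fabp5 then ranked above Plin2 in the IncPBF lungs and just below it in the sham lungs. Fold changes of a gene do not depend on its length beyond the weight of the pseudocount.

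Ratios within a lung cancel its scaling. The 7 ratios were chosen after the values of the genes were seen. Their p-values restate the gene results and are no separate test. The log2 ratio of Pnpla2 to Plin2 was -0.40 ± 0.09 in the IncPBF lungs and 0.45 ± 0.27 in the sham lungs (SD, n = 5). The sign of each ratio depends on the gene lengths used, while the difference between groups does not beyond the pseudocount. The difference was -0.85 (exact permutation p = 0.00794, two-sided; adjusted over 7 ratios 0.00926). Against Plin2, the differences of Lpl (-0.78), Cd36 (-0.72) and Fabp5 (0.40) also separated the groups, each with the same adjusted p. For Lipe the difference was -0.58 and the groups overlapped (exact permutation p = 0.0159, adjusted 0.0159). IncPBF lung 1 alone differed from the sham mean by -0.71 for Pnpla2, -0.95 for Lpl, -0.69 for Cd36, -0.50 for Lipe and 0.48 for Fabp5.

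Beyond these 10 genes, 85 other lipid genes in 6 lists were read out from the same fit. Of the 73 tested, 31 were lower, 9 higher and 33 did not pass, with a median log2 fold change of -0.21 (all genes, 0.014; background 16.2% lower and 16.1% higher). With Xist as covariate 10 were lower and 1 higher, against 413 and 328 of all genes, and for IncPBF lung 1 alone 3 were lower and none higher.

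Partners of PPARγ and other factors of fat cell formation had 7 of 18 tested genes lower and 2 higher (median -0.21). The shares over all genes tested were 16.2% lower and 16.1% higher. Klf15, a transcription factor induced by glucocorticoids, was at 4.56 ± 1.21 FPKM in IncPBF and 19.7 ± 5.54 in sham lungs (SD, n = 5), a log2 fold change of -2.07 (SE 0.22, limma adjusted p = 7.78e-05). Cebpd, an early factor of adipogenesis, was at 12.7 ± 1.19 against 26.6 ± 3.86 FPKM (-1.05, adjusted p = 4.99e-05). Nr1h3, which encodes the sterol receptor LXRα, changed by -0.40 (adjusted p = 0.00559). Rxrg, a retinoid X receptor, rose from 0.435 ± 0.151 to 1.24 ± 0.170 FPKM (1.37, limma adjusted p = 0.00107). It had 45 to 64 fragments in IncPBF and 10 to 24 in sham lungs. Rxrg passed the filter of 0.5 FPKM only through the IncPBF mean. Zfp423, a factor of preadipocytes, rose by 0.29 (adjusted p = 0.0378). This call was lost without any 1 of IncPBF lungs 1, 2 or 4 or sham lungs 1 to 4 (adjusted p 0.051 to 0.0853). With Xist as covariate the calls of Klf15 (-1.80, adjusted p = 0.0278) and Cebpd (-0.95, 0.0195) held and those of Nr1h3 (0.389), Rxrg (0.0706) and Zfp423 (0.221) were lost.

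Among genes of fatty acid uptake and lipoprotein hydrolysis, 6 of 18 were lower and 3 higher (median -0.12). Of all genes tested, 16.2% were lower and 16.1% higher. Lipg, the endothelial lipase, fell from 39.0 ± 7.92 to 16.1 ± 1.05 FPKM (SD, n = 5; -1.25, limma adjusted p = 4.18e-05). Angptl4, a secreted inhibitor of LPL and a known target of PPARs, fell from 44.3 ± 6.83 to 21.4 ± 2.30 FPKM (-1.03, adjusted p = 8.22e-05), so that both the lipase and its inhibitor were lower. Scarb1, the receptor for high-density lipoprotein, changed by -0.72 (adjusted p = 0.000445). Gpihbp1, the capillary protein that anchors LPL, was at 38.8 ± 3.21 against 50.6 ± 4.70 FPKM (-0.38, adjusted p = 0.00413; 0.247 with Xist as covariate). Among those higher were Fabp3, the carrier of heart and muscle (0.92, adjusted p = 0.0181), and Dbi, which binds acyl-CoA (0.27, adjusted p = 0.0485). The call of Dbi was lost without any 1 of the 5 IncPBF lungs or of sham lungs 1, 3 or 5 (adjusted p 0.0522 to 0.111). Lipg, Angptl4 and Scarb1 held with Xist as covariate (adjusted p = 0.0168, 0.00865 and 0.0301), while Fabp3 (0.279) and Dbi (0.653) did not.

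Droplet coat and triglyceride synthesis had 8 of 15 tested genes lower and 1 higher (median -0.34), with 5 genes too low to test. The background was 16.2% lower and 16.1% higher over all genes tested. Plin4, a coat protein of fat cells, was at 0.219 ± 0.119 against 0.824 ± 0.168 FPKM (SD, n = 5), a log2 fold change of -1.58 (limma adjusted p = 0.00192). It had 13 to 42 fragments in IncPBF and 63 to 107 in sham lungs. It passed the filter of 0.5 FPKM only through the sham mean. The lipins, which make diacylglycerol for triglyceride, were lower, with Lpin1 at 2.32 ± 0.0899 against 6.26 ± 1.76 FPKM (-1.35, adjusted p = 0.000168), Lpin2 at -0.89 (adjusted p = 0.000108) and Lpin3 at -1.05 (adjusted p = 0.000195). Dgat1, which adds the last fatty acid, rose by 0.32 (adjusted p = 0.0279), a call lost without any 1 of IncPBF lungs 1, 3 or 4 or sham lungs 1, 3 or 4 (adjusted p 0.0516 to 0.0673). Lpin1 (0.0326) and Lpin3 (0.0123) passed with Xist as covariate, and Plin4 (0.0873) and Dgat1 (0.33) did not.

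Of the genes that control lipolysis, 4 of 10 tested were lower and 2 higher (median -0.09). Among all genes tested the shares were 16.2% lower and 16.1% higher. Adrb3, the β-adrenergic receptor of fat cells, changed by -0.43 (limma adjusted p = 0.0122). Abhd5, the protein that activates ATGL, was at 6.68 ± 0.459 against 9.13 ± 1.01 FPKM (SD, n = 5; -0.44, adjusted p = 0.0025). G0s2, an inhibitor of ATGL, was at 86.9 ± 2.51 against 75.7 ± 19.6 FPKM and did not pass (adjusted p = 0.237). Pde3b, which breaks down cAMP, rose by 0.38 (adjusted p = 0.00755) and Prkar2b, a regulatory subunit of protein kinase A, by 0.34 (0.00133). None of these 4 calls held with Xist as covariate (adjusted p 0.0569 to 0.462).

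Adipokines and their receptors had 6 of 7 tested genes lower and none higher (median -0.63), and these were mainly receptors. The shares over all genes tested were 16.2% lower and 16.1% higher. Cmklr1, the chemerin receptor, was at 19.8 ± 3.86 against 41.2 ± 8.84 FPKM (SD, n = 5; -1.05, limma adjusted p = 0.00104). Lepr, the leptin receptor, was at 18.1 ± 1.82 against 30.2 ± 1.99 FPKM (-0.74, adjusted p = 6.03e-05) and Nampt, an enzyme of NAD synthesis also secreted by fat, changed by -0.70 (adjusted p = 0.00156). Lepr passed with Xist as covariate (0.0271), and Cmklr1 (0.131) and Nampt (0.229) did not. In the list of the PTHrP signal, by which the alveolar epithelium acts on lipofibroblasts, 1 of 5 tested genes passed. Either way, 32.3% of all genes tested passed. Pth1r, the receptor, rose from 5.19 ± 1.12 to 8.88 ± 0.504 FPKM (0.79, adjusted p = 0.00218; 0.165 with Xist as covariate).

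**Figure D3:**
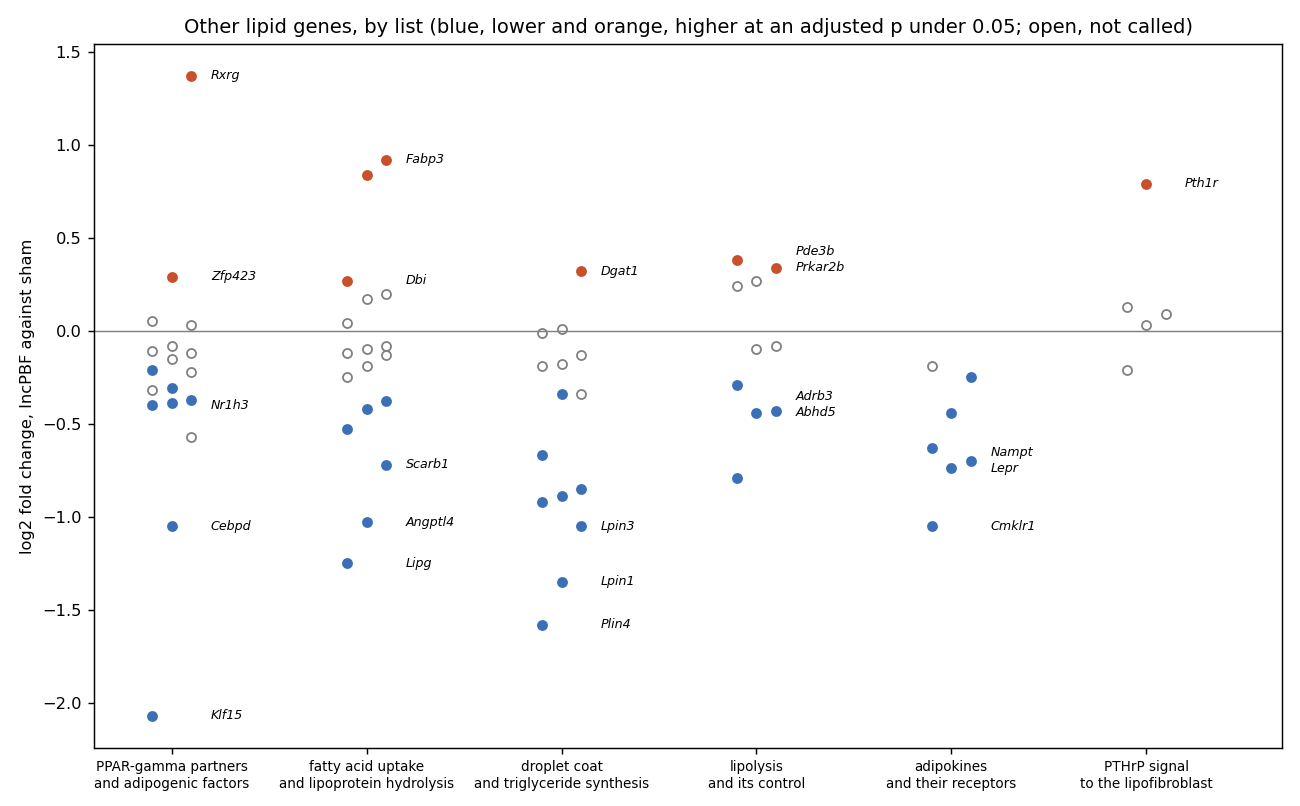
Log2 fold change of FPKM + 0.1 (vertical axis), IncPBF against sham, for the 73 tested genes of the 6 lists (horizontal axis); blue points passed as lower, orange as higher and open points did not pass at an adjusted p under 0.05. Values run from -2.07 (Klf15) to 1.37 (Rxrg), with 31 blue and 9 orange points.

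Markers of the cell types that could carry these RNAs were read out too. Whole lung was measured, so no value can be assigned to lipofibroblasts alone. Tcf21, a defining factor of these cells, was at 107 ± 5.04 FPKM in IncPBF and 109 ± 10.1 in sham lungs (SD, n = 5; log2 fold change -0.03, limma adjusted p = 0.799). Of 10 lipofibroblast markers, all above 0 and tested, 4 were lower and 1 higher. Over all genes tested, 16.2% were lower and 16.1% higher. The summed FPKM of the 10 markers was 790 to 983 in IncPBF and 1257 to 1823 in sham lungs. Inmt, a methyltransferase abundant in these fibroblasts, changed most, from 502 ± 122 to 64.8 ± 23.2 FPKM (-2.99, adjusted p = 1.76e-05). The others that were lower were Npnt (334 ± 29.6 against 475 ± 73.3 FPKM, -0.50), Limch1 (-0.67) and Col13a1 (-0.27), and Wnt2 was higher (0.71). With Xist as covariate the calls of Inmt (-2.68, adjusted p = 0.00929) and Wnt2 (0.0272) held and those of Npnt (0.283), Limch1 (0.0665) and Col13a1 (0.137) were lost. The part of these cells in the result was not tested.

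Defining markers of white fat were at or near 0. Lep was at 0 in all 10 lungs, 10 of 13 adipocyte markers were too low to test, and the summed FPKM of the list was 2.04 to 5.37 in IncPBF and 3.77 to 5.86 in sham lungs. The 3 tested, Cidec (1.28 ± 0.323 against 2.59 ± 0.942 FPKM, SD, n = 5), Plin4 and Thrsp, were all lower. None of these calls held with Xist as covariate (limma adjusted p = 0.137, 0.0873 and 0.281). Plin4 and Thrsp passed the filter of 0.5 FPKM through their sham means, 0.824 and 0.708 FPKM. Their IncPBF means were 0.219 and 0.344 FPKM, so the filter favoured this direction for both. Over all genes tested, 16.2% were lower and 16.1% higher. Among markers too low for the fit, Car3 was higher, at 6 to 66 fragments in IncPBF and 0 to 5 in sham lungs. Its groups did not overlap (exact permutation p = 0.00794, two-sided). Its highest values were in IncPBF lungs 4 and 5, at 1.03 and 1.11 FPKM, against 0.447 or less in the other IncPBF lungs. Ucp1 (0.648 FPKM) and Cidea (0.621) were also highest in IncPBF lung 5 and Cfd (0.566) in IncPBF lung 4. Adig and Retn were highest in a sham lung. Pck1 was at 0 in all sham lungs and at 6 fragments or fewer in the IncPBF lungs. The part of fat cells in the result was not tested.

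Capillary endothelium, where CD36 and LPL also act, had 8 of 10 markers lower and none higher, all of them above 0. The shares over all genes tested were 16.2% lower and 16.1% higher. The summed FPKM of the 10 markers was 1467 to 1494 in IncPBF and 1664 to 2041 in sham lungs, without overlap. The marker with the highest mean over all 10 lungs, the junction protein Cldn5, was at 428 ± 33.02 against 405 ± 62.9 FPKM (SD, n = 5) and did not pass (log2 fold change 0.09, limma adjusted p = 0.557). In the sham lungs Aqp1 (475 FPKM) and Hpgd (416) were above it, and both were lower in IncPBF lungs (-0.45 and -0.51). Ptprb changed most of the list, by -0.83, about as much as Cd36. With Xist as covariate 3 of the 8 calls held, those of Plvap (adjusted p = 0.0308), Ptprb (0.0464) and Kit (0.0471). The mean log2 value of the 10 markers differed by -0.38, while single markers ranged from -0.83 to 0.24. Relative to that mean, Cd36 differed by -0.43 and Lpl by -0.50 on the log2 scale. Both ratios separated the groups (two-sided exact permutation p = 0.00794, adjusted over 7 ratios 0.00926). They are among the 7 ratios chosen after the values were seen, so these p-values are no separate test. The part of capillary cells in the result was not tested.

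Alveolar macrophages, which also store lipid, had 3 of 9 markers lower and none higher, with a summed FPKM of 68.8 to 412 in IncPBF and 96.6 to 377 in sham lungs. Chil3 had the highest mean of the list and varied widely, at 147 ± 115 against 101 ± 103 FPKM (SD, n = 5; log2 fold change 0.57, limma adjusted p = 0.593; -0.06 with Xist as covariate and -0.11 for IncPBF lung 1 alone). Alveolar type 2 cells had 3 of 7 markers lower and none higher, and a summed FPKM of 10846 to 13339 against 12936 to 16122. Sftpc, the surfactant protein that carried most of this sum, was at 10428 ± 949 against 12095 ± 1237 FPKM. It did not pass (-0.21, adjusted p = 0.358, and 0.12 under quantile normalization). For both lists, the shares over all genes tested were 16.2% lower and 16.1% higher. No marker of either list was at 0 in a whole group, and none of the 6 calls held with Xist as covariate (adjusted p 0.0614 for Sftpb to 0.489 for Krt79). The part of either cell type in the result was not tested.

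**Figure D4:**
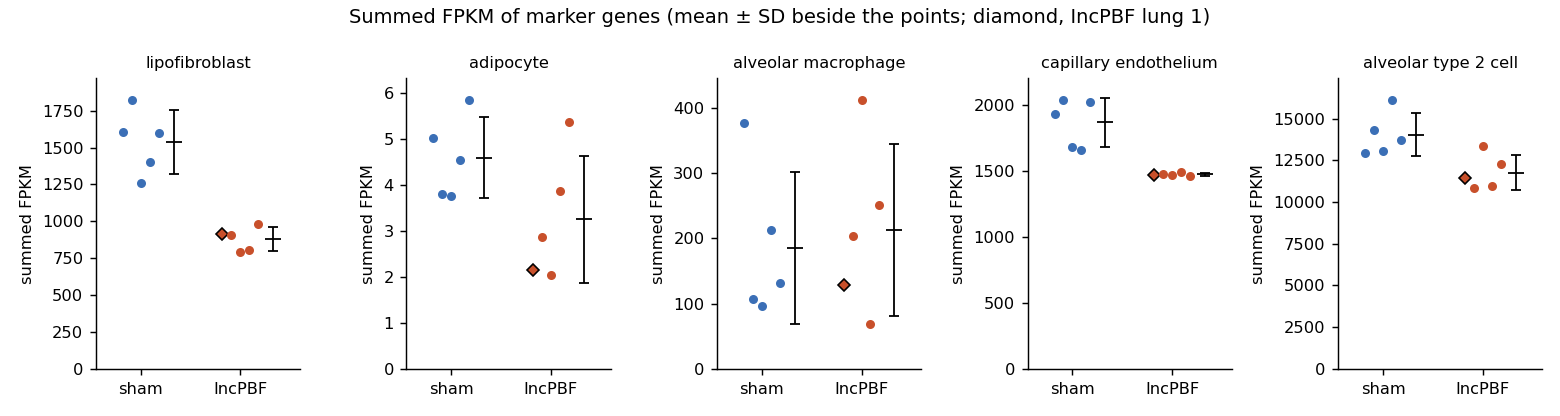
Summed FPKM (vertical axes, from 0) of 5 marker lists in the 5 sham (blue) and 5 IncPBF (orange) lungs, 1 point per lung, with mean ± SD beside them; the diamond is IncPBF lung 1. The lipofibroblast and capillary sums separate by group and the adipocyte, macrophage and type 2 cell sums overlap.

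Within the groups, some genes followed the lipid genes from lung to lung. After each group's mean was removed, Pearson's r over the 10 lungs was computed with 13534 genes of at least 1 FPKM, as a description. These values come from the same libraries and share their depth. Nearest to Cd36 were Esyt2 (0.970), Itgb1 (0.967), Arsk (0.965), Rhoa (0.960) and Angpt1 (0.959). Plin2 had Marveld2 (0.968), Asap3 (0.940), Sncaip (0.921), Zscan22 (0.919) and Tmem171 (0.915). Among those nearest to Pparg were Atp10a (0.939), Jade1 (0.924), Gm5417 (0.921) and Blk (0.907). For Adipoq the highest r was 0.90, with Ccdc122. Its values rest on 2 and 7 fragments in IncPBF lungs 4 and 5 and 1 each in sham lungs 2 and 4. No gene was among the nearest 5 of more than 1 of these.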

How the data were processed

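Bulk RNA-sequencing covered 5 IncPBF and 5 sham lungs. The authors deposited FPKM per gene, with gene lengths; the submitters' processing notes name Bowtie 0.12.2 and the builds hg38, GRCm38 and mm10, and counting software is not given in the sources used here. Coordinates matched GENCODE M21 on GRCm38 for 98.3% of 54409 shared genes. FPKM times length gave whole fragments for 100% of values up to 2000 fragments (tolerance 0.01). Column names of the IncPBF lungs differ from their titles, so they were assigned by group and IncPBF lung numbers are column numbers.

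Genes with a mean of at least 0.5 FPKM (15388) were tested on log2(FPKM + 0.1), a scale that understates changes of low genes, with limma 3.58.1 (lmFit, eBayes with trend) in R 4.3.3, Benjamini-Hochberg adjusted over all of them; calls are at 0.05. Single values were tested by exact permutation over 252 assignments. The code was tested on simulated data; it missed the recovery first asked over all genes, the misses being genes of low counts, and the criterion was then restricted to well-covered genes, after that result was seen and with the fit unchanged. Python 3.11.15, pandas 2.3.3, scipy 1.17.1 and matplotlib 3.10.9 were used.

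The 10 genes, 6 pathway lists and 5 marker lists were chosen with earlier results of these data known. Named are the 10 genes, per pathway list up to 3 called genes in each direction by log2 fold change, per marker list the most abundant gene, and the 5 genes most like Plin2, Pparg, Cd36 and Adipoq. Of these, 3 genes are not reported here. Chosen after their values were seen were the other genes named (Gpihbp1, Lpin2, G0s2, Tcf21, Inmt, Limch1, Col13a1, Wnt2, Lep, Thrsp, Car3, Ucp1, Cidea, Cfd, Adig, Retn, Pck1, Aqp1, Hpgd, Ptprb, Plvap, Kit, Sftpb, Krt79, Xist and Ddx3y) and the 7 ratios. A total of 22 alternatives changed 1 choice each: pseudocount (1 or 0.01), filter (at least 1 FPKM, or none), scaling (quantile normalization, median centring or an equal total per lung), eBayes without trend, limma-voom on fragments, the replicate number as a block, Xist as covariate, IncPBF lung 1 alone against sham (spread from the sham lungs), and each lung left out.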

Additional observations from a re-analysis of the deposited data

How the results depend on the processing

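Cd36, Lpl, Pnpla2 and Lipe were lower under all 22 alternatives, with log2 fold changes from -0.87 to -0.73, -1.09 to -0.81, -1.01 to -0.84 and -0.73 to -0.59. For IncPBF lung 1 alone, a fit that assumes that this lung varies like the sham lungs, only Lpl stayed past the threshold, so that 1 of the 10 genes was lower. No gene of the 10 was higher (0) without a filter, by eBayes without trend, with the replicate block, with Xist as covariate or for IncPBF lung 1 alone, where the main count of 1 was Fabp5. Leaving out each lung gave 4 to 4 of the 10 genes lower and 0 to 1 higher, 30 to 35 pathway genes lower and 6 to 11 higher, and 1919 to 2699 of all genes lower and 1950 to 2535 higher. With Xist as covariate, 10 pathway genes were lower and 1 higher, and 413 of all genes lower and 328 higher. For IncPBF lung 1 alone, 3 pathway genes were lower and 0 higher, and 112 of all genes lower and 42 higher. In both fits the contrast rests on IncPBF lung 1, almost wholly so with Xist as covariate, and standard errors were larger.

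Signs turned for genes that did not pass in any of these fits. Pparg was at 0.03 with an equal total, 0.08 by limma-voom, 0.04 without IncPBF lung 4, 0.03 without sham lung 1 and 0.01 without sham lung 3, with a range of -0.04 to 0.04 over the lungs left out. Fabp4 was at -0.07 with Xist as covariate, -0.03 for IncPBF lung 1 alone and -0.01 without sham lung 5, with a range of -0.01 to 0.39 over the lungs left out. Chil3 was at -0.06 with Xist as covariate and -0.11 for IncPBF lung 1, and Sftpc at 0.12 under quantile normalization. The cause was not tested. The median of all genes moved by less than 0.1 under every scaling (0.00209 to 0.0932). The counts over all genes depended on the scaling. They were 2490 lower and 2480 higher in the main fit, 1960 and 2921 with an equal total, and 1870 and 3644 by limma-voom. Median centring gave 2529 and 2451, and quantile normalization 2567 and 2554.

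Lungs with the same number did not deviate together (correlations -0.0675 to 0.0854). These correlations cannot tell whether the numbers mark pairs, such as littermates, that share no large deviation. With the replicate block the calls of Fabp5 (adjusted p = 0.072), Zfp423 (0.0687) and Dgat1 (0.0759) were lost and those of Cd36 (0.00044), Lpl (0.000715), Pnpla2 (0.000284) and Lipe (0.0029) were not. Depth limits Plin1 and Adipoq: without a filter (31400 genes tested) their log2 fold changes were 0.75 (adjusted p = 0.23) and 0.35 (0.575).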
